A study of Mus musculus with 12 samples.

Results

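The genes described here are 31 messages that make, sense, carry or export cholesterol, read in mouse fat cells that had received a let-7 microRNA mimic. They were taken by symbol from a deposited count table, and 31 of 31 listed symbols were among its 15754 genes. Of these, 18 encode enzymes of synthesis (7 on the way from acetyl-CoA to farnesyl diphosphate and 11 from squalene to cholesterol), 4 encode sterol sensors, 4 act in transport and storage, and 5 belong to the liver X receptor (LXR) and efflux arm. The study asked what let-7 does to messages of primary epididymal white adipocytes, and it sequenced 12 libraries, 4 with let-7d-5p mimic, 4 with let-7e-5p mimic and 4 with negative control. All groups came from wild-type male C57BL/6 mice aged 8 weeks on chow. In every group, stromal vascular cells were grown out and induced with rosiglitazone, insulin, dexamethasone and IBMX, the oligonucleotides went in by RNAiMAX reverse transfection at day 4, and RNA was taken at day 7. The labels give no mimic dose. Sample identifiers split the libraries into series 1 (replicates 1 and 2 of each group) and series 2 (replicates 3 and 4), and the labels do not say what separates them. The labels do not state that replicates came from separate cultures or mice, and p-values therefore reflect library-to-library spread alone, possibly technical. The study's design text gives n = 6, where 4 libraries are listed for each group, and it does not say what was counted.

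Cells build cholesterol from acetyl-CoA through mevalonate, farnesyl diphosphate, squalene and lanosterol. When sterol in the endoplasmic reticulum is low, the escort protein SCAP carries the transcription factor SREBP2 to the Golgi, where it is cut free to switch on the synthesis genes, and INSIG proteins hold the pair back when sterol is high. Oxidised sterols bind LXR, which switches on the exporters ABCA1 and ABCG1. Fat cells store a large share of the body's free cholesterol in their lipid droplets and membranes. MicroRNAs of the let-7 family pair through a short seed near their 5′ end with sites in messages, which are then translated less or broken down.

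The mature mouse microRNAs that the mimics copy are shown here because their shared seed (bases 2 to 8, in capitals) defines the sites searched for in the members. Sequences and positions are those of RefSeq, build GRCm38.p6.
mmu-let-7d-5p (chr13:48536078-48536099, minus strand): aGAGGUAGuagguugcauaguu
mmu-let-7e-5p (chr17:17830366-17830387, plus strand): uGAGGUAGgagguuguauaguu
Both are 22 bases long and differ at 3 positions outside the seed, A1U, U9G and C16U, counted from 1 at the 5′ end with the let-7d base first.

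The annotated 3′ UTRs (GENCODE vM21, the transcript with the longest 3′ UTR of each gene) were searched for CTACCTCA (8mer), CTACCTC without that last A (7mer-m8) and TACCTCA without that first C (7mer-A1), each site counted once and on the transcribed strand only. Such a match was present in 2301 of 13547 tested genes with a 3′ UTR (17%) and in 4 of the 31 members (12.9%). It was found in 0 of the 18 synthesis enzymes and in 4 of the other 13, counts that take no account of 3′ UTR length. That length ran from 55 bases (Fdps) to 3747 (Sc5d) among the enzymes and from 149 (Scap) to 6534 (Soat1) among the others. The sites found are printed with the match in capitals.
Srebf2 7mer-m8 (chr15:82204824-82204853, plus strand): caccctcactcCTACCTCccatagaagtgt
Npc2 8mer (chr12:84755602-84755631, minus strand): gcctcctgcttCTACCTCAagtgctgagat
Abcg1 7mer-m8 (chr17:31115177-31115206, plus strand): aatcacattaaCTACCTCcaccgagcctgg
Soat1 7mer-A1 (chr1:156427310-156427339, minus strand): tgtcagcttgtTACCTCAacctatgggtgg
Soat1 7mer-m8 (chr1:156426375-156426404, minus strand): agtctggattgCTACCTCttaaaaactgca
The Npc2 site lies in the 1 annotated 3′ UTR of that gene, the Srebf2 and Soat1 sites in 1 of 2 transcripts, and the Abcg1 site in 1 of 3. A match is a description of these letters and not a measured site of action.

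The deepest library, let-7e replicate 3, held 33396316 counts, and the shallowest, control replicate 2, held 15071299. Levels are given as CPM, counts relative to library size, with TMM scaling, which lines up the bulk of genes between libraries. All 31 members had counts in the libraries of every group. Per kilobase of annotated exon, the order of the control levels in series 2 began with Npc2 (198 CPM per kb), Cyp51 (47.3), Hmgcs1 (45.1) and Insig1 (44.7), and Tm7sf2 (1.19) was lowest. In series 1 the highest control levels were those of Insig1 (239 CPM per kb), Npc2 (137) and Hmgcs1 (121), and the lowest were Tm7sf2 (3.68) and Idi1 (3.66).

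With the let-7d mimic, 10 of the 18 synthesis enzymes fell against negative control and none rose, while outside synthesis Stard4 rose and Srebf2 and Abcg1 fell. With the let-7e mimic, 5 synthesis enzymes fell (Mvd, Fdps, Sqle, Lss and Msmo1), each of which also fell with let-7d, and Insig1, Stard4 and Npc2 rose. Counted over all 31 members, 1 rose and 12 fell with let-7d, beside 16.2% of all genes called, 6.41% higher and 9.81% lower. With let-7e, 3 rose and 5 fell, beside 9.50% of all genes called, 3.81% higher and 5.69% lower. The let-7e count was 4 without control replicate 2, let-7e replicate 3 or let-7e replicate 4, the last leaving 1 lower call, and 5 without control replicate 3, let-7e replicate 1 or let-7e replicate 2. The threshold was an adjusted p of 0.05 in edgeR's quasi-likelihood test with a term for the sample series. Each of these calls was lost when the series term was left out. RNA was pooled from whole cultures, so fewer cells of a type and less message per cell cannot be told apart. Summed over 6 smooth muscle markers, of which 2 fell with either mimic, the level in series 2 was 5130 to 5600 CPM with let-7d, 5450 to 5560 CPM with let-7e and 6480 to 6810 CPM in controls, and in series 1 it was 3230 to 3360, 3040 to 3310 and 3540 to 4520 CPM. The summed adipocyte markers of the mimic libraries, 5510 to 6730 CPM in series 2 and 23400 to 25000 CPM in series 1, overlapped the controls at 5110 to 7220 CPM and 22700 to 24700 CPM. Gene by gene, with let-7d in series 2 alone, 4 of 11 adipocyte markers fell and 0 rose, with a median log2 fold change of -0.18. Of all genes in that fit, 2.88% fell and 1.94% rose. In series 1 alone 2 rose and 0 fell with let-7d, with a median of -0.011, beside 6.24% and 7.32% of all genes. With let-7e 0 fell and 0 rose in series 2 alone, with a median of -0.073, beside 0.793% and 0.438% of all genes. In series 1 alone 0 fell and 1 rose with let-7e, with a median of -0.041, beside 5.08% and 4.53%. The part of these cells in the member results was not tested.

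The falls were modest in size. The median log2 fold change of the synthesis enzymes was -0.22 with let-7d and -0.15 with let-7e, beside medians over all genes of -0.0022 and -0.0019. For the 13 sensing, transport and efflux members the medians were -0.11 with let-7d and -0.062 with let-7e. Within series 2, the let-7d medians were -0.28 for synthesis and -0.13 for the other members, and within series 1 they were -0.11 and 0.022. The let-7e medians were -0.22 for synthesis and -0.027 for the other members in series 2, and -0.11 and -0.0085 in series 1. Without let-7d replicate 3 the let-7d median of the other members was -0.059, and without control replicate 4 it was -0.069. Without control replicate 3 the let-7e median of the synthesis enzymes was -0.093 and that of the other members -0.037.

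**Figure D1:**
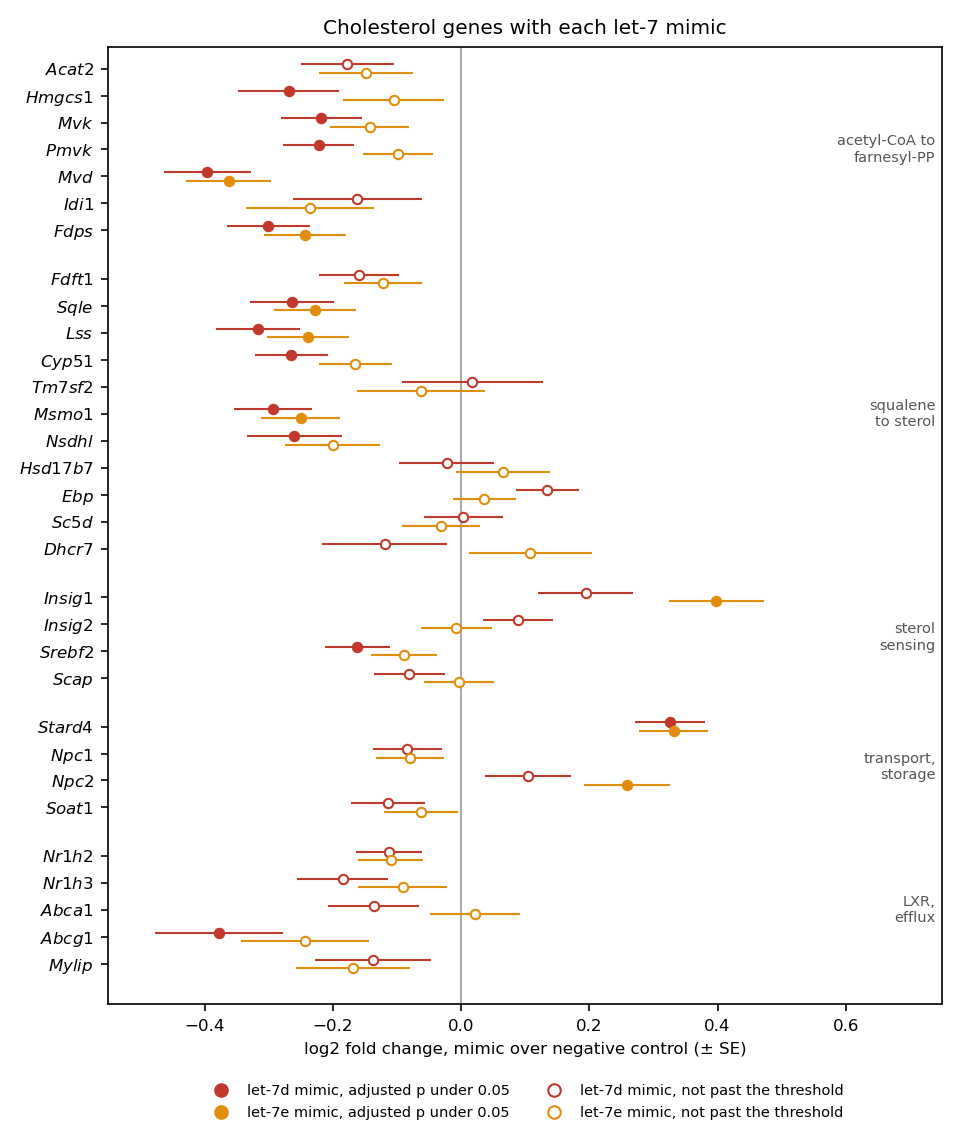
Log2 fold change of each member, mimic over negative control, with its standard error (SE), from all 12 libraries, for let-7d (red) and let-7e (orange), grouped by role; filled points passed an adjusted p under 0.05. The 10 filled let-7d points of synthesis all lie left of 0, from Mvd at -0.40 to Mvk and Pmvk at -0.22, while Stard4 lies at 0.33 with either mimic.

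Each library was also placed against the control mean of its own series. The median over synthesis enzymes of this log2 difference was -0.176, -0.111, -0.386 and -0.159 in let-7d replicates 1 to 4 and -0.0763, -0.126, -0.18 and -0.207 in let-7e replicates 1 to 4, against 0.0698 and -0.0698 in the series 2 controls and 0.0422 and -0.0422 in the series 1 controls. Every mimic library lay below both controls of its series, and let-7d replicate 3 lay furthest down. For the other 13 members the mimic libraries lay between -0.0761 and -0.0109, and part of them lay within the range of the controls.

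**Figure D2:**
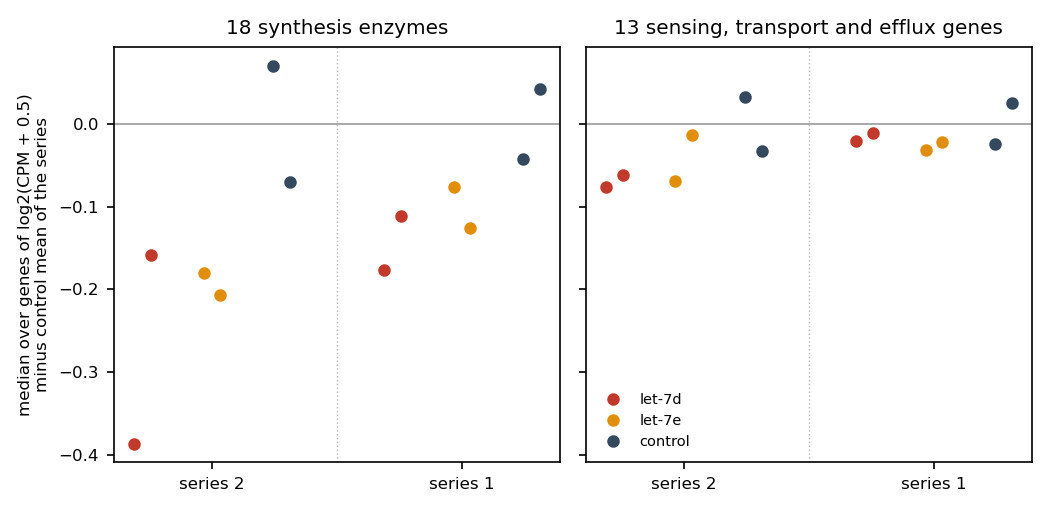
Median over the 18 synthesis enzymes (left) and the 13 sensing, transport and efflux members (right) of log2(CPM + 0.5) minus the control mean of the same series; each point is 1 library of let-7d, let-7e or control. The lowest synthesis point is let-7d replicate 3 at -0.386, and the mimic points of the other members stay between -0.0761 and -0.0109.

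All 7 enzymes from acetyl-CoA to farnesyl diphosphate had a negative estimate with either mimic, and 5 of them fell with let-7d and 2 with let-7e. Mvd, the decarboxylase that turns mevalonate diphosphate into isopentenyl diphosphate, had 47.4, 52.4, 14.6 and 18.7 CPM in let-7d replicates 1 to 4, 49.1, 49.3, 17.1 and 18.7 CPM in let-7e replicates 1 to 4, and 63.1, 62.7, 22.9 and 23.3 CPM in control replicates 1 to 4. Within each series every mimic library was below both controls. The log2 fold change was -0.40 ± 0.068 (SE) with let-7d (adjusted p = 0.000961), a fall of about 24%, and -0.36 ± 0.067 with let-7e (adjusted p = 0.00299).

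Fdps, which joins isoprene units into farnesyl diphosphate, had 37.9, 37.5, 19.1 and 21.5 CPM in the let-7d libraries, 38.6, 41.8, 21 and 20 CPM in the let-7e libraries, and 42.7, 47, 27.5 and 24.3 CPM in the controls. Its mimic and control libraries did not overlap within a series. It changed by -0.30 ± 0.065 with let-7d (adjusted p = 0.00502) and by -0.24 ± 0.064 with let-7e (adjusted p = 0.0247), and the let-7e call was lost without control replicate 2 or 3 or without let-7e replicate 1, 3 or 4.

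Hmgcs1, which makes HMG-CoA, fell by 0.27 on the log2 scale with let-7d (adjusted p = 0.0302), with -0.43 in series 2 and -0.083 in series 1. Its let-7e value was -0.10 (adjusted p = 0.479), with -0.29 in series 2 and 0.097 in series 1. The kinases Mvk and Pmvk, which add the phosphates of mevalonate diphosphate, both fell by 0.22 with let-7d (adjusted p = 0.0275 and 0.0123), with let-7e values of -0.14 and -0.098. The let-7d call was lost for Hmgcs1 without let-7d replicate 1 or 3 or control replicate 3 or 4, and for Mvk without control replicate 1 or 2 or let-7d replicate 1 or 3. Acat2, the thiolase that joins acetyl-CoA units, and Idi1, the isomerase of isopentenyl diphosphate, passed with neither mimic. Acat2 had values of -0.18 with let-7d and -0.15 with let-7e, and Idi1, among the lowest members per kilobase, had -0.16 and -0.24.

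From squalene onwards, 5 of 11 enzymes fell with let-7d and 3 with let-7e, and none rose. Lss, which closes the rings to lanosterol, had 118, 129, 22.1 and 28.1 CPM in let-7d replicates 1 to 4, 136, 128, 26.2 and 26.1 CPM in let-7e replicates, and 143, 156, 32.7 and 31.9 CPM in control replicates. All mimic libraries lay below the controls of their series. The change was -0.32 ± 0.065 with let-7d (adjusted p = 0.00361) and -0.24 ± 0.064 with let-7e (adjusted p = 0.0289), and the let-7e call was lost in 6 of the 12 fits that left out 1 library (control 2, 3 or 4, let-7e 2, 3 or 4).

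Msmo1, the monooxygenase that acts on the methyl groups left on the sterol after the step of Cyp51, had 70.1, 65.9, 96.9 and 116 CPM with let-7d, 71.5, 73, 109 and 104 CPM with let-7e, and 85, 78.8, 139 and 126 CPM in controls. Again no mimic library reached a control of its own series. Its log2 fold change was -0.29 ± 0.061 with let-7d (adjusted p = 0.00386) and -0.25 ± 0.061 with let-7e (adjusted p = 0.0162, lost without let-7e replicate 4).

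Cyp51, the lanosterol demethylase, had 186, 186, 153 and 176 CPM in let-7d libraries, 195, 197, 182 and 177 CPM in let-7e libraries, and 215, 208, 222 and 195 CPM in control libraries. These groups did not overlap within a series, with let-7d lowest in each. It fell by 0.26 with let-7d (SE 0.057, adjusted p = 0.00484), and its let-7e value of -0.17 did not pass (adjusted p = 0.0815), although it did in DESeq2 (adjusted p = 0.0409) and without let-7d replicate 3 (adjusted p = 0.0449).

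Sqle, the squalene epoxidase, fell by 0.26 with let-7d (adjusted p = 0.0115) and by 0.23 with let-7e (adjusted p = 0.0365), the second of which was kept in 5 of the 12 fits that left out 1 library. Nsdhl, the dehydrogenase that follows Msmo1, fell by 0.26 with let-7d (adjusted p = 0.0258), a call lost without control replicate 3 or let-7d replicate 3, and had -0.20 with let-7e. Fdft1, the squalene synthase, had values of -0.16 and -0.12 that passed with neither mimic, although the let-7d value passed without let-7d replicate 2 (adjusted p = 0.0486). The sterol reductase genes Tm7sf2, Hsd17b7 and Dhcr7, the isomerase gene Ebp and the desaturase gene Sc5d passed with neither mimic. With let-7d, Tm7sf2 was at 0.017, Hsd17b7 at -0.022, Ebp at 0.13, Sc5d at 0.0038 and Dhcr7 at -0.12, the last with -0.29 in series 2 and 0.013 in series 1. With let-7e these 5 lay between -0.062 and 0.11. Ebp passed as higher with let-7d under upper-quartile scaling (adjusted p = 0.0313) and without control replicate 3 (adjusted p = 0.0368). Dhcr7 passed as higher with let-7e in series 1 alone (0.31, adjusted p = 0.0268), while its let-7e value in series 2 alone was -0.17 (adjusted p = 0.69).

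Without regard to the fit, 11 of 31 members had every let-7d library below both controls within either series, the 10 called enzymes and Srebf2, beside 13.4% of all genes. Stard4 had every let-7d library above the controls, beside 10.4% of all genes. For let-7e, 8 members lay wholly below, beside 10.4% of all genes, and 3 wholly above, beside 8.70%.

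**Figure D3:**
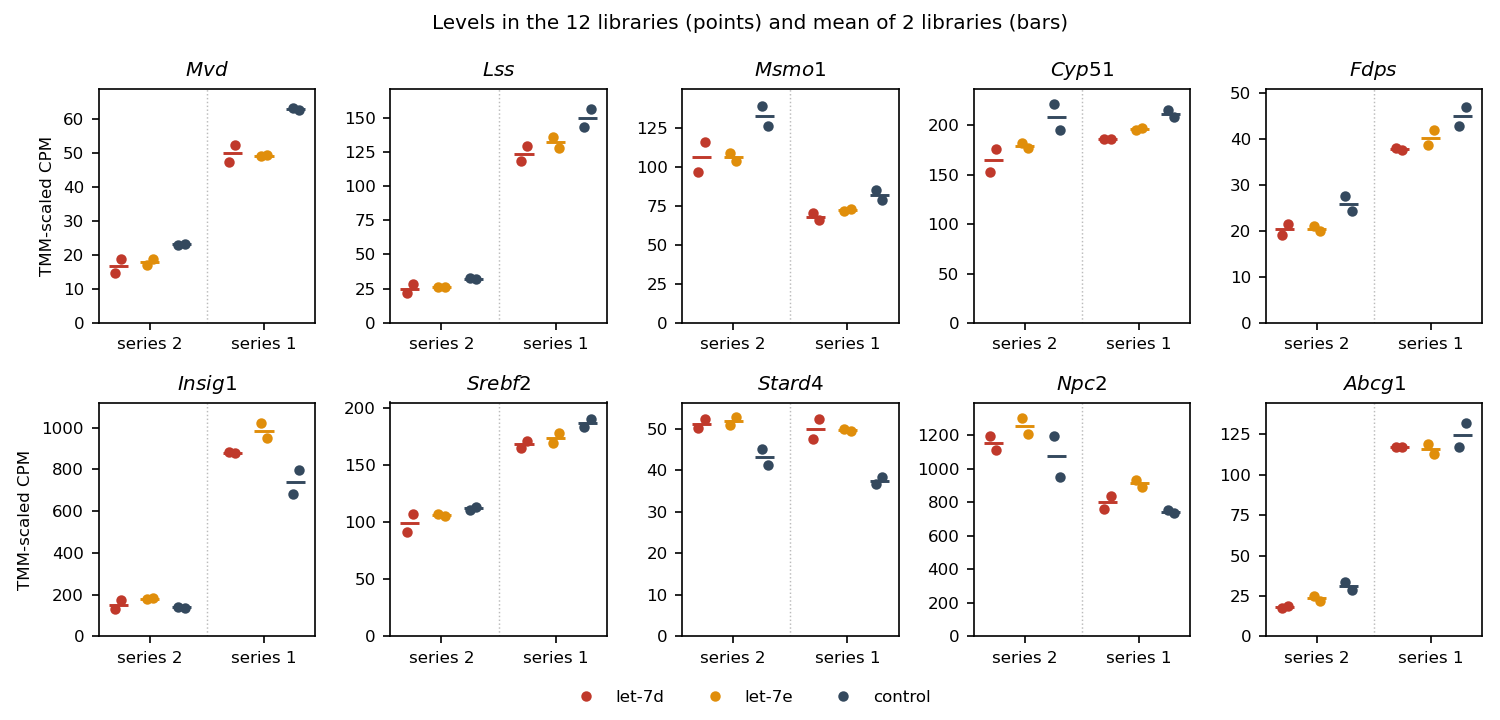
TMM-scaled CPM of 10 members in each of the 12 libraries (points) with the mean of each pair (bars), let-7d, let-7e and control side by side within series 2 and series 1; axes start at 0. Mimic points lie below control points in both series for Mvd, Lss, Msmo1, Cyp51, Fdps and Srebf2 and above them for Stard4, and Lss, Insig1 and Abcg1 are far lower in series 2 in every group.

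Among the 4 sterol sensors, 1 rose with let-7e and 1 fell with let-7d. Insig1, which retains SCAP in the endoplasmic reticulum, had 882, 879, 131 and 172 CPM in let-7d replicates 1 to 4, 1022, 948, 177 and 183 CPM in let-7e replicates 1 to 4, and 680, 797, 142 and 135 CPM in controls. All let-7e libraries exceeded the controls of their series, while let-7d replicate 3 lay below both of its controls. The log2 fold change was 0.40 ± 0.074 with let-7e (adjusted p = 0.00292), about 31.7% higher. With let-7d it was 0.19 ± 0.074 (adjusted p = 0.0847), and it passed without let-7d replicate 3 (0.27, adjusted p = 0.00743) and in series 1 alone (0.26, adjusted p = 0.0426).

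Srebf2, which encodes SREBP2 and carries one of the sites printed above, had 165, 171, 91.1 and 107 CPM with let-7d, 169, 178, 107 and 105 CPM with let-7e, and 183, 190, 111 and 113 CPM in controls. Every mimic library was below both controls of its series. It changed by -0.16 ± 0.051 with let-7d (adjusted p = 0.0408), a call that held in 2 of the 12 fits leaving out 1 library, those without let-7d replicate 4 and without let-7e replicate 3, with the adjusted p reaching 0.132 in the others. With let-7e the value was -0.089 (adjusted p = 0.325). Insig2, the second retention protein, and Scap, the escort, passed with neither mimic, at 0.088 and -0.081 with let-7d and -0.0075 and -0.0033 with let-7e.

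Of the 4 genes of transport and storage, Stard4 rose with either mimic and Npc2 with let-7e. Stard4, a soluble carrier that moves sterol between membranes, had 47.5, 52.3, 50.1 and 52.3 CPM in let-7d libraries, 50, 49.5, 50.9 and 52.8 CPM in let-7e libraries, and 36.7, 38.3, 45.1 and 41.3 CPM in control libraries. No mimic library overlapped a control in either series. The rise was 0.33 ± 0.055 with let-7d (adjusted p = 0.000847), or 25.3%, and 0.33 ± 0.054 with let-7e (adjusted p = 0.00118), or 25.8%. Both calls held in all 12 fits that left out 1 library.

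Npc2, the lysosomal protein that hands cholesterol to NPC1, carries the 8mer match printed above. It had 760, 840, 1195 and 1112 CPM with let-7d, 932, 894, 1301 and 1205 CPM with let-7e, and 752, 734, 1198 and 951 CPM in controls. The let-7e libraries lay above the controls of their series, while those of let-7d overlapped the controls in series 2. Its change was 0.26 ± 0.067 with let-7e (adjusted p = 0.0225), lost without control replicate 2 or 4 or let-7e replicate 1, 2 or 3, and 0.10 with let-7d (adjusted p = 0.323). Npc1, the lysosomal exporter, and Soat1, which esterifies cholesterol for storage and has a pair of seed matches, passed with neither mimic. Their values were -0.084 and -0.11 with let-7d and -0.080 and -0.062 with let-7e.

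In the LXR and efflux arm all 5 members had a negative let-7d estimate, and 1 fell. Abcg1, which exports cholesterol to high-density lipoprotein and has a 7mer match, had 117, 117, 17.8 and 19 CPM with let-7d, 119, 113, 25.1 and 21.9 CPM with let-7e, and 117, 132, 33.5 and 28.5 CPM in controls. Series 1 libraries overlapped between groups, and in series 2 each mimic library was below both controls. Over both series it fell by 0.38 with let-7d (SE 0.10, adjusted p = 0.0209), and the let-7e value was -0.24 (adjusted p = 0.163). The let-7d call was lost without control replicate 3, let-7d replicate 3 or let-7d replicate 4, with the adjusted p reaching 0.0671.

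Nr1h2 and Nr1h3, which encode the LXR proteins, had let-7d values of -0.11 and -0.18 and let-7e values of -0.11 and -0.091. Neither passed, but Nr1h3 passed with let-7d without control replicate 4 (-0.26, adjusted p = 0.00617) and Nr1h2 in series 1 alone (-0.21, adjusted p = 0.0402). Abca1, the exporter to lipid-poor apolipoproteins, had -0.14 with let-7d and 0.021 with let-7e. Mylip, a ubiquitin ligase that marks lipoprotein receptors for breakdown, had -0.14 and -0.17 with let-7d and let-7e. Neither Abca1 nor Mylip passed.

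Between the mimics, 0 of 31 members differed in edgeR's test of let-7d over let-7e, beside 0.152% of all genes called. DESeq2 and limma-voom also called 0. At an unadjusted p under 0.05 stood 5 members, all lower with let-7d. The smallest p was that of Insig1, at -0.20 ± 0.073 (adjusted p = 0.397), followed by Dhcr7 at -0.23 ± 0.095 (adjusted p = 0.477). Calls made with one mimic and not with the other, such as Npc2 or Hmgcs1, are therefore not shown to differ between mimics.

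For most members the difference between sample series was far larger than the response to a mimic. Taken over all groups, 4 members were higher in series 2 than in series 1 and 24 were lower, beside 81.7% of all genes called, 41.7% higher and 40.0% lower. The lowest in series 2 relative to series 1 were Dhcr7, the last reductase of synthesis (-2.93 ± 0.081), Insig1 (-2.47 ± 0.063), Abcg1 (-2.31 ± 0.087) and Lss (-2.28 ± 0.054). Acat2 followed at -1.96, Nr1h3 at -1.86, Pmvk at -1.79, Hmgcs1 at -1.67, Abca1 at -1.58 and Mvd at -1.50. Msmo1 (0.63), Npc2 (0.51), Ebp (0.14) and Insig2 (0.12) were higher, and Fdft1, Stard4 and Soat1 did not pass.

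Neighbouring steps of synthesis differed in how far the series stood apart. Lss had 25.1 CPM with let-7d, 26.1 CPM with let-7e and 32.3 CPM in controls on average in series 2, against 123, 132 and 150 CPM in series 1. Cyp51, the next step, had 165, 179 and 209 CPM in these groups in series 2 and 186, 196 and 211 CPM in series 1.

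Markers of other cells differed between series as well. Summed over 11 adipocyte markers, all 11 of them lower in series 2, the level was 5110 to 7220 CPM in series 2 and 22700 to 25000 CPM in series 1. Of 10 precursor markers, 8 were higher in series 2 and 2 lower, with a median log2 fold change of 1.39, although their sum, which weighs abundant markers most, was 7570 to 8530 CPM in series 2 and 16400 to 20400 CPM in series 1. Of 17 macrophage markers 16 were lower and 0 higher, and they summed to 39.8 to 206 CPM in series 2 and 347 to 524 CPM in series 1. Of 6 smooth muscle markers 4 were higher and 2 lower, with sums of 5130 to 6810 CPM in series 2 and 3040 to 4520 CPM in series 1. Of 10 endothelial markers 2 were higher and 6 lower (267 to 370 CPM in series 2, 374 to 424 CPM in series 1), and of 6 mesothelial markers 2 were higher and 3 lower (87.5 to 93.6 CPM in series 2, 96.8 to 107 CPM in series 1). No measured marker was at 0 in every library. The part of these cells in the series difference of the members was not tested.

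**Figure D4:**
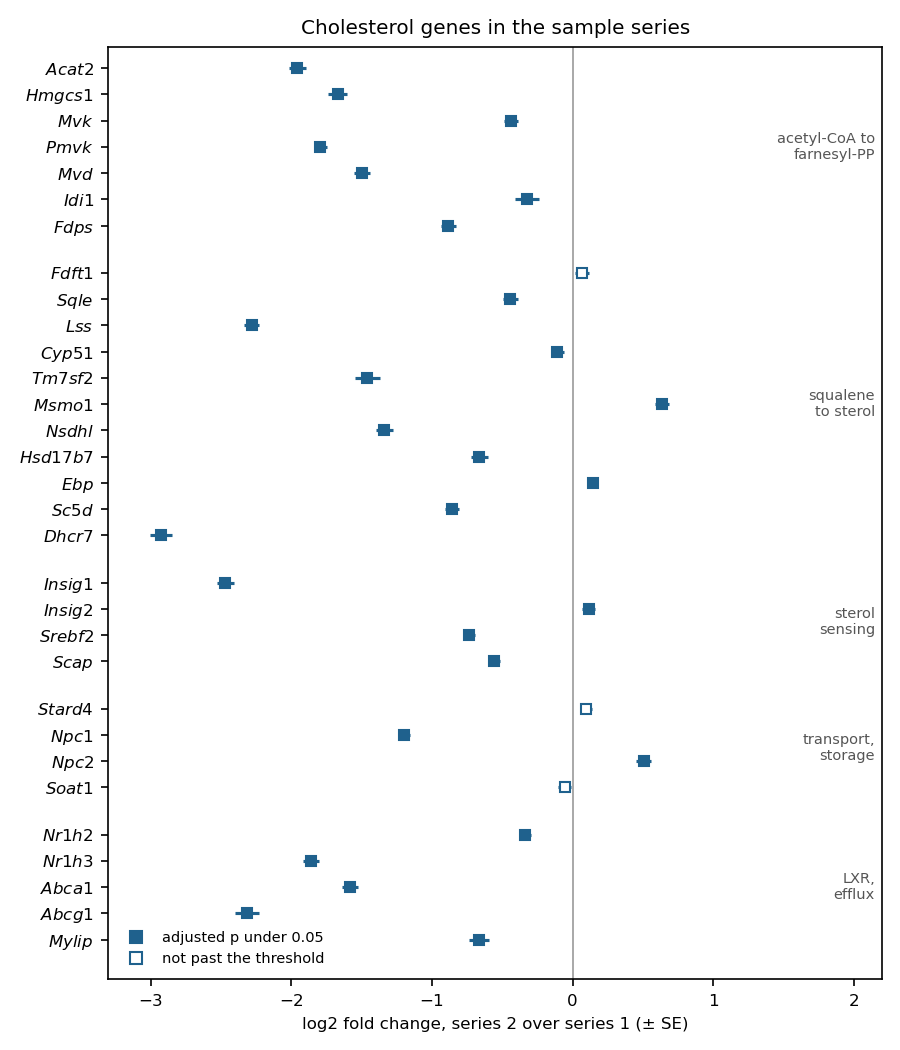
Log2 fold change of each member, series 2 over series 1, with its SE, from all 12 libraries and adjusted for group; filled squares passed an adjusted p under 0.05. Most squares lie left of 0, down to Dhcr7 at -2.93, while Msmo1 at 0.63 and Npc2 at 0.51 lie to the right.

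Whether a mimic acted differently in the series was tested as an interaction over all 12 libraries. For let-7d, 1 of 31 members differed, with a lower change in series 2, beside 0.241% of all genes in either direction and 0.178% in that one, with 6 members at an unadjusted p under 0.05. For let-7e 0 of 31 differed in edgeR, limma-voom and DESeq2, beside 0.00635%. At an unadjusted p under 0.05 in edgeR stood 3 members (Hmgcs1, Dhcr7 and Abcg1), all with a lower let-7e change in series 2. The member called for let-7d was Abcg1, whose let-7d change was -0.74 in series 2 and -0.073 in series 1, a difference of -0.67 ± 0.13 (adjusted p = 0.0484). Its adjusted p ranged over the alternatives up to 0.232, reached without let-7d replicate 2, and down to 0.00337 in DESeq2. Markers of macrophages, which are well known for ABCG1, summed to 90.2 and 206 CPM in let-7d libraries and to 80.6 and 109 CPM in let-7e libraries of series 2, against 39.8 and 59.5 CPM in its controls, and to 464 and 489 CPM in let-7d libraries and 347 and 524 CPM in let-7e libraries of series 1, against 473 and 477 CPM in its controls. Over both series 4 of the 17 macrophage markers rose and 0 fell with let-7d, beside 6.41% of all genes called higher, and 0 were called with let-7e. In series 2 alone 4 rose with let-7d and 0 with let-7e, with median log2 fold changes of 1.94 and 1.07. The shares of all genes called higher there were 1.94% and 0.438%. In series 1 alone 5 fell with let-7d and 6 with let-7e, with medians of -0.034 and -0.084, beside 7.32% and 5.08% of all genes called lower. In the let-7d interaction, the median difference, series 2 against series 1, was 2.06 for the 17 macrophage markers. It was -0.16 for the 11 adipocyte markers, of which 9 were negative and 2 positive. In either list 0 markers were called. The part of macrophages or adipocytes in the Abcg1 result was not tested.

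Taken alone, series 2 gave 0 members called higher and 2 lower with let-7d (Hmgcs1 and Abcg1), beside 1.94% and 2.88% of all genes, and series 1 gave 2 higher and 5 lower, beside 6.24% and 7.32%. For let-7e, series 2 gave none, beside 0.438% and 0.793%, and series 1 gave 4 higher and 1 lower, beside 4.53% and 5.08%. Each such fit rests on 2 libraries a group.

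Other genes of the pathway, outside the 31, were counted against the same shares of all genes, 6.41% higher and 9.81% lower with let-7d and 3.81% and 5.69% with let-7e. Of 12 genes that supply carbon, isoprenoids or electrons, 4 fell with let-7d and 2 with let-7e, and none rose. Acly, which makes cytosolic acetyl-CoA, had -0.29 ± 0.060 with let-7d (adjusted p = 0.00363), the acetyl-CoA synthetase gene Acss2 -0.26 (adjusted p = 0.0168), and Pgrmc1, which binds sterol-making cytochromes, -0.23 (adjusted p = 0.00363). Pgrmc1 (-0.18) and the reductase gene Cyb5r3 (-0.19) were those that fell with let-7e.

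Of 12 genes that handle SREBP, 1 rose and 1 fell with either mimic, and these were the paired membrane proteins of the endoplasmic reticulum that hold SREBP complexes and help to degrade other proteins there. Erlin1 rose by 0.37 with let-7d (adjusted p = 0.000961) and by 0.29 with let-7e (adjusted p = 0.00808), while Erlin2 fell by 0.37 (adjusted p = 4.06e-05) and by 0.33 (adjusted p = 0.000173). Among 19 further transport genes 1 rose and 2 fell with let-7d, and 1 rose and 1 fell with let-7e, each within 1 gene of what those shares of all genes give, as were the counts of SREBP genes. Scarb1, a receptor for high-density lipoprotein, had -0.44 with let-7d (adjusted p = 0.000238), the lipoprotein receptor gene Vldlr -0.23 with let-7d and -0.25 with let-7e, and the lysosomal gene Scarb2 0.22 and 0.25. Of 12 LXR partners and targets, 2 rose and 3 fell with let-7d, and 2 fell with let-7e. Lpcat3, which remodels phospholipids, had -0.43 with let-7d and -0.35 with let-7e, Arl4c had -0.49 and -0.37, and the LXR partner gene Rxra rose by 0.19 with let-7d.

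Promoters, from 250 bases before to 50 after the start in RefSeq, were at hand for 25 of the 31 members, and were searched on both strands for letters known from SREBP, its partner NF-Y and LXR. TCACNCCAC, a sterol element, stood in 167 of 14377 promoters of tested genes (1.16%) and in that of Hmgcs1. The shorter TCACCCCA, which can overlap it, stood in 213 (1.48%), among them Hmgcs1 and Srebf2. Those windows hold the only such matches among the members and are shown with the match in capitals (build GRCm38.p6).
Hmgcs1 (chr13:119690204-119690233, plus strand): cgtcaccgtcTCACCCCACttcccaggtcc
Srebf2 (chr15:82147097-82147126, plus strand): tgacgcaccaTCACCCCAtgagccgcttcg
CCAAT stood in 37.4% of promoters and in 20 of the 32 promoters at hand for the 25 members. The DR4 element of LXR (a spaced direct repeat of AGGTCA) stood in 2 promoters (0.0139%) and in 0 members. The other synthesis enzymes with a promoter at hand held neither sterol element in this window.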

How the data were processed

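The deposited table holds whole-number read counts per Ensembl gene, not normalised, for 12 libraries. Its name says that the counts were taken after a CPM filter, so the shares of all genes are shares of the genes kept. A listed gene or marker absent from it may have been removed by that filter, and its absence does not show that it had no reads. The submitters' processing notes name STAR and GRCm38.p6, while for the read counter and its strand setting the sources used here give nothing. Exons of 10 members overlap another gene, 7 of them on the opposite strand (Cyp51, Fdft1, Hmgcs1 and Lss among them). With the strand setting not given, it is not known whether reads of the bases shared on opposite strands were told apart. On the same strand, Fdps shares 1124 exon bases with Gm43738, Tm7sf2 532 with Vps51 and Nr1h3 34 with Gm13783. A second deposited table, named RPKM, was not used, because the gene length it implies differs between libraries.

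Of 15754 identifiers, 15742 matched GENCODE vM21, and the members were found there by symbol. From this already filtered table, edgeR 4.0.16 (R 4.3.3) removed 0 further genes with filterByExpr. Its quasi-likelihood test was fitted after TMM scaling to group and sample series over 12 libraries (8 residual degrees of freedom), with Benjamini and Hochberg adjustment over all genes. Group by series was fitted with 6 residual degrees of freedom and single series with 3. The members, marker lists and further pathway genes were chosen with earlier results of these data known. Values per library are given for called members, namely the 5 synthesis enzymes of smallest p and all outside synthesis, and further genes are the 3 of smallest p called in each list. On simulated data the let-7d test recovered 64% of genes changed by a log2 of 0.5 and 78% of those changed by 1, with 9 false calls among 15754 genes. The let-7d interaction recovered 20% and 63%, with 7 false calls. Only 100 genes of each size were changed, where 16.2% of real genes were called with let-7d. The let-7d changes of the members, -0.40 to 0.33, were smaller than both sizes, and recovery at such sizes was not measured. Libraries of 1 group and series differed beyond counting noise (chi-square per degree of freedom 2.31 to 9.92), so no pair looked like 1 library deposited again. The first principal component (88.8% of variance) separated the series. Of 12 adipocyte markers 11 were measured, and 1 rose and 0 fell with either mimic. Of these 11, 8 had a negative estimate with let-7d (median log2 fold change -0.12) and 9 with let-7e (median -0.081). Of 10 precursor markers 4 rose and 2 fell with let-7d, and 3 rose and 2 fell with let-7e. Of 10 endothelial markers 1 fell with let-7d, of 6 smooth muscle markers 2 fell with either mimic, and of 6 mesothelial markers none was called. Of 8 lymphocyte markers 1 was measured, at 0.408 to 2.99 CPM, and it fell with let-7d. Alternatives were other scalings, a filter at a mean of 1 CPM, DESeq2 1.42.0, limma-voom (limma 3.58.1), no series term, a replicate block, each series alone and leaving out each library.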

Additional observations from a re-analysis of the deposited data

Results flagged for a closer look

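The let-7d response of Abcg1, the cholesterol exporter, differed between the sample series by -0.673 on the log2 scale in edgeR's interaction test (adjusted p = 0.0484), with lower levels in both let-7d libraries of series 2 than in both controls of that series and overlapping levels in series 1. Dixon's criterion for 1 library apart from the other 3 of its group could hardly be met, since each group of 4 holds 2 libraries of either series, and its lack of marks says nothing about stability. Among the let-7d libraries, replicate 3 had the lowest median of synthesis enzymes against the control mean of its series, -0.386 where the others had -0.176, -0.111 and -0.159.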

How the results depend on the processing

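Series carried most of the dependence. The count of called members, 13 with let-7d and 8 with let-7e, became 0 and 0 without a series term, 2 and 0 in series 2 alone and 7 and 5 in series 1 alone. With 1 library left out it ran from 9 to 13 with let-7d, from 4 to 9 with let-7e and from 26 to 28 between series. The single let-7d interaction became 0 with DESeq2 size factors in edgeR, limma-voom or a minimum mean of 1 CPM, and ran from 0 to 2 with 1 library left out. In series 1 alone the let-7d median was -0.112 for synthesis and 0.022, a reversed sign, for the other members, whose let-7e median was -0.027 in series 2 alone and -0.009 in series 1 alone. Without a series term the let-7d median of the other members was -0.071. With 1 library left out, the synthesis medians ran from -0.250 to -0.188 with let-7d and from -0.175 to -0.093 with let-7e, and those of the other members from -0.115 to -0.059 and from -0.077 to -0.037. Scaling, filter and tool left the counts against control within 1.5 times. The widest SE with let-7d were 0.11 for Tm7sf2 and 0.10 for Idi1 and Abcg1.

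Whether replicate numbers pair the libraries is not stated in the labels and could not be settled here. Deviations of same-numbered libraries from the mean of their group and series correlated by -0.128 to 0.328. With 2 libraries of each group in each series, both replicates of a series give the same correlation by construction. A replicate block gave 14 called members with let-7d, Nr1h3 being added (adjusted p = 0.0499), 8 with let-7e and 0 between mimics.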
